A study of Lactuca sativa with 6 samples.

Results

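The 300 transcript clusters described here were those whose level in lettuce leaves that had received a Chlorella vulgaris extract lay apart from the level in every other library. They were chosen from measured levels. For each of the 39253 clusters of the count table, the level in CPM was the count divided by the total of its library and multiplied by 1000000, and 22892 clusters had a mean CPM of at least 1 over the 6 libraries and were not among the 32 named in the study's tables of selected genes and primers. The high gap of a cluster was the log2 ratio of the lower C. vulgaris library to the highest of the other 4 libraries, and the low gap was the log2 ratio of the lowest of the other 4 to the higher C. vulgaris library, each with 0.5 added to the CPM. The 150 largest high gaps gave the high members and the 150 largest low gaps gave the low members.

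Lettuce (Lactuca sativa L.) seedlings with 4 true leaves stood on pumice in boxes of 10 in a growth chamber and acclimatized for 6 days. Controls (LsCK) then received 500 mL of Hoagland nutrient solution alone. The treated seedlings received the same solution with a methanol extract of C. vulgaris (LsCv) or of Scenedesmus quadricauda (LsSq), both green microalgae, at 1 mg of organic carbon per litre. Leaves were collected 4 days later from all 3 groups, so the groups shared the growth conditions, the nutrient solution and the tissue and differed, as far as the labels state, in the extract. RNA-seq of each group gave 2 libraries. The sources speak of 5 biological replicates per treatment, but nothing states which boxes or how many plants went into a library, so the spread between 2 libraries may be technical. The age of the plants in days is not given in the sources used here.

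Extracts of microalgae are used as plant biostimulants: small amounts of organic matter from the cells, among them amino acids, carbohydrates and hormone-like molecules, are given to a crop and alter its growth and its use of nutrients. A biostimulant acts on a plant partly through the transcription of its genes, and RNA-seq reads that response as the abundance of transcripts. The lettuce reads here were assembled without a genome, so the unit is not a gene but a cluster of assembled transcripts that share reads, which stands in for a gene. The number before the point of a cluster name gives its super-cluster, a family of clusters that are linked by shared reads, as the transcripts of paralogs and splice forms often are. Where a read fits several clusters its count is divided among them, and the count need not be whole.

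The count table names no gene. The study's functional table lists clusters that it found shifted from the controls in the same direction by both extracts. The rule for the members works against such a listing, so absence from it says little about their function. The functional table of the study that was available in part (1214 clusters) listed 0 of the 300 members, so none of the gene groups searched for (kinases and receptors, disease resistance, transcription factors, transport, secondary metabolism, transposons, chloroplast functions) held a described member, and the leaf identity of the tissue could not be checked against marker genes. The 2 largest gaps of each direction are therefore given by cluster name and the other members by their rank. The ranks described were the 2 sides of each limit, the highest mean level of each direction, and others that were chosen after their values were seen. In leaf tissue as a whole, fewer cells of a type and less RNA per cell cannot be told apart.

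The libraries held between 26408716 and 35184764 counts. The 10 most abundant clusters of a library took between 3.54% and 6.79% of its counts, with the highest share in LsCv replicate 1, and the Spearman correlation of levels between the 2 libraries of a group, taken across clusters that are not independent replicates, was 0.93 for LsCK, 0.94 for LsCv and 0.97 for LsSq. LsCK replicate 2 stood apart in clusters that the functional table assigns to other organisms, whose sequences were not analysed here. The 45 clusters that the functional table assigns to green algae summed to 2375 counts in it and to 0 in each of the other 5 libraries. Its 57 oomycete clusters summed to 2409 counts in LsCK replicate 2, to 6 in LsCK replicate 1 and to 0 in the other 4. That table lists clusters that the study had found to differ from its controls under both extracts, mostly lower, which favours clusters with counts in LsCK. Of both lists, 0 clusters were members. The comparison of LsSq with LsCK is given with and without it, while the sets chosen for LsCK itself are not.

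The members on the high side stood out by less than those on the low side. A positive high gap was found for 1710 clusters (7.47% of 22892) and a positive low gap for 4429 (19.3%). Among the high members the gap reached 1.83, had a median of 0.64 and ended at 0.53, and 12 of 150 members had a gap over 1, which is a doubling of CPM + 0.5 between the nearest libraries. The low gap reached 4.39, had a median of 1.25 and ended at 1.03, so all 150 low members exceeded 1 and 15 exceeded 2. These sizes chose the members and are given as a description.

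The limits of both lists fell within a continuous run of values. The last high member, of rank 150, stood at 209 and 244 CPM in LsCv against 144 and 61.9 CPM in LsCK and 82.1 and 81.7 CPM in LsSq. The first cluster outside stood at 20.3 and 20.0 CPM in LsCv against 13.7 and 9.73 CPM in LsCK and 12.3 and 12.1 CPM in LsSq. Their gaps were equal to 2 decimals, at 0.53. The last low member lay at 0.0925 and 0.275 CPM in LsCv against 1.08 and 1.33 CPM in LsCK and 2.69 and 1.91 CPM in LsSq, and the first cluster outside at 2.96 and 4.13 CPM in LsCv against 8.92 and 15.2 CPM in LsCK and 11.0 and 15.0 CPM in LsSq. Both low gaps were 1.03.

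The split between high and low clusters depended on the scaling. With library totals 27.9% of the positive gaps were high gaps. With TMM factors, which are computed without the clusters of the most extreme ratios between libraries, 42.2% were (2598 high and 3559 low). With DESeq2 size factors 50.5% were (3159 high and 3091 low). Over all 22892 clusters the median log2 ratio of LsCv to the other 4 libraries was -0.20 with totals, -0.05 with TMM and -0.00 with size factors, and with totals it was -0.36 for LsCv replicate 1 and -0.12 for LsCv replicate 2. The median log2 ratio with totals was 1.32 for the high members and -2.12 for the low members, sizes that the choice of the most extreme gaps fixes. Under each of the 3 scalings all 150 high and all 150 low members kept a positive gap. The smallest high gap among them was 0.48 with TMM and 0.55 with size factors, and the smallest low gap was 0.76 and 0.71. Fewer stayed among the 150 largest gaps of their direction: 104 high and 120 low members with TMM, and 110 and 123 with size factors.

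The largest high gap belonged to Cluster-15809.13579. Its counts were 490 and 444 in LsCv, 137 and 36 in LsCK and 87 and 91 in LsSq. In CPM these were 15.1 and 15.3 in LsCv (mean 15.2 ± 0.112, SD, n = 2), 3.89 and 1.36 in LsCK (2.63 ± 1.79) and 2.96 and 3.17 in LsSq (3.06 ± 0.148). The LsCv libraries were alike and both lay 3.55-fold or more above the nearest other library on the CPM + 0.5 scale. The 95% Wilson interval was 13.8 to 16.5 CPM in LsCv replicate 1 and 3.29 to 4.60 CPM in LsCK replicate 1, counting error only. LsSq lay between the LsCK libraries, which differed from each other more than the LsSq libraries did.

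The second, Cluster-15809.14241, was a cluster of low level with divided reads. It held 251.66 and 122.18 counts in LsCv, 43.08 and 27.37 in LsCK and 4.94 and 35.6 in LsSq. As CPM these were 7.76 and 4.20 in LsCv, 1.22 and 1.04 in LsCK and 0.168 and 1.24 in LsSq. LsSq replicate 1 was the lowest library and LsCv replicate 1 the highest. The gap was 1.43, a 2.70-fold separation of the nearest libraries.

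The low side was led by clusters with almost no reads in LsCv. Cluster-15809.5222 held 352 and 380 counts in LsCK, 391 and 373 in LsSq and 0 in both LsCv libraries. Its level was 10.0 and 14.4 CPM in LsCK (12.2 ± 3.10, SD, n = 2) and 13.3 and 13.0 CPM in LsSq (13.1 ± 0.222). The 4 libraries without C. vulgaris extract lay within a narrow range and both LsCv libraries were at 0. A count of 0 allows up to 3 counts, which is 0.0925 CPM in LsCv replicate 1 and 0.103 CPM in LsCv replicate 2. Against the mean of these limits the level in LsCv was at least 125-fold lower than in LsCK and at least 134-fold lower than in LsSq.

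Cluster-9362.0 held 881 and 272 counts in LsCK, 297 and 351 in LsSq and 0 and 2 in LsCv. Its CPM values were 25.0 and 10.3 in LsCK (17.7 ± 10.4, SD, n = 2), 10.1 and 12.2 in LsSq (11.2 ± 1.50) and 0 and 0.0688 in LsCv. Only LsCK replicate 1 stood away from the other 3 libraries without the extract. The 95% Wilson interval of LsCv replicate 2 ran from 0.0189 to 0.251 CPM and that of the nearest library, LsSq replicate 1, from 9.01 to 11.3 CPM. This cluster was the single one of its super-cluster, whereas the other 3 named members belonged to the largest super-cluster.

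**Figure D1:**
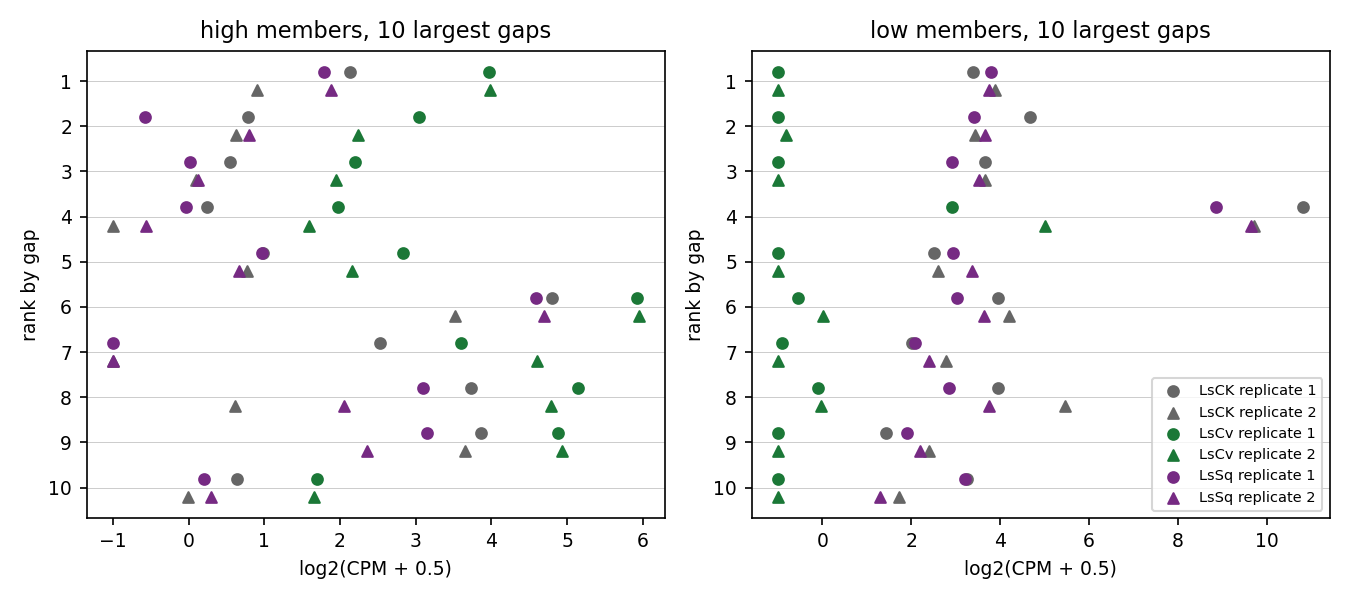
Level of the 10 high members (left) and the 10 low members (right) with the largest gaps, as log2(CPM + 0.5) on the horizontal axis and rank by gap on the vertical axis, with a circle for replicate 1 and a triangle for replicate 2 of each group. On the left the green LsCv points lie to the right of all others, by 1.83 at rank 1 and by 1.02 at rank 10. On the right 5 of the 10 members have both LsCv points at a CPM of 0, which is -1 on this axis.

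Members with almost no counts in LsCv stood among the larger low gaps, which the rule favours since the gap grows as the LsCv level nears 0. Both LsCv libraries held at most 3 counts for 17 of 150 low members, and both held 0 counts for 11 of them. Of the 17, 12 were among ranks 1 to 50, 5 among ranks 51 to 100 and 0 among ranks 101 to 150. For the 11 members with 0 counts, entered at the limit of 3 counts per library, the level in LsCv was at least 15.8-fold to at least 129.5-fold lower than the mean of the other 4 libraries. The other 6 held between 1 and 6 counts over both LsCv libraries together. Among them the mean of the other 4 was 443-fold the pooled LsCv level for Cluster-9362.0 (exact Poisson 95% interval of the 2 LsCv counts, 123 to 3661) and 14.9-fold for the low member of rank 76 (6 counts, 6.84 to 40.6). By the same rule applied to the other groups, 2 of the 150 lowest LsSq clusters and 1 of the 150 lowest LsCK clusters lay at that limit in both libraries of the group, and 0 of both sets had a count of 0 in both.

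The opposite pattern, presence in LsCv alone, was not found among the high members. For 0 of 150 were all 4 other libraries at or under 3 counts, and for 8 was any of them. An example was the high member of rank 7, with 11.6 and 23.9 CPM in LsCv, 5.29 and 0 CPM in LsCK and 0 CPM in both LsSq libraries. There the LsCK libraries disagreed, and LsCK replicate 1 alone set the gap of 1.07. It was 1 of 2 high members, with rank 16, that had both LsSq libraries at or under 3 counts. Rank 16 stood at 10.4 and 10.1 CPM in LsCv and 4.95 and 0 CPM in LsCK.

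The members spanned a wide range of levels. The mean CPM of the high members ran from 1.01 to 1042 with a median of 12.4, and that of the low members from 1.00 to 1125 with a median of 5.98, against a median of 15.0 over all clusters of the rule. Low members were found mostly in the lower classes: 66 of 150 had a mean CPM under 5 and 60 lay between 5 and 20, with 20 up to 100 and 4 above. The high members were spread as 45, 51, 38 and 16 over the same classes. Over all 22892 clusters the shares were 26.3%, 31.2%, 33.4% and 9.11%, so the high members followed the whole table more closely than the low members did.

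The highest level among the high members was that of rank 100. It was measured at 1470 and 1676 CPM in LsCv, 968 and 654 CPM in LsCK and 569 and 916 CPM in LsSq, a gap of 0.60. Rank 76, the next in level, lay at 1244 and 1183 CPM in LsCv, 758 and 302 CPM in LsCK and 309 and 437 CPM in LsSq. In both the LsCv libraries were close to each other and LsCK replicate 1 was the nearest other library. A member of intermediate level, rank 12, stood at 200 and 171 CPM in LsCv, 84.8 and 82.3 CPM in LsCK and 43.1 and 48.6 CPM in LsSq, with LsSq below LsCK in every library.

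Among the low members the highest mean level was at rank 57. It lay at 1769 and 2494 CPM in LsCK, 854 and 1210 CPM in LsSq and 100 and 327 CPM in LsCv. Rank 4 came next in level and was far more reduced in LsCv, with 1814 and 842 CPM in LsCK, 461 and 800 CPM in LsSq and 7.06 and 32.0 CPM in LsCv, a gap of 3.83. In both members LsSq lay between LsCK and LsCv, and LsCv replicate 1 was lower than LsCv replicate 2. Rank 36 had no such intermediate position of LsSq, with 245 and 251 CPM in LsCK, 251 and 200 CPM in LsSq and 31.5 and 68.2 CPM in LsCv.

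**Figure D2:**
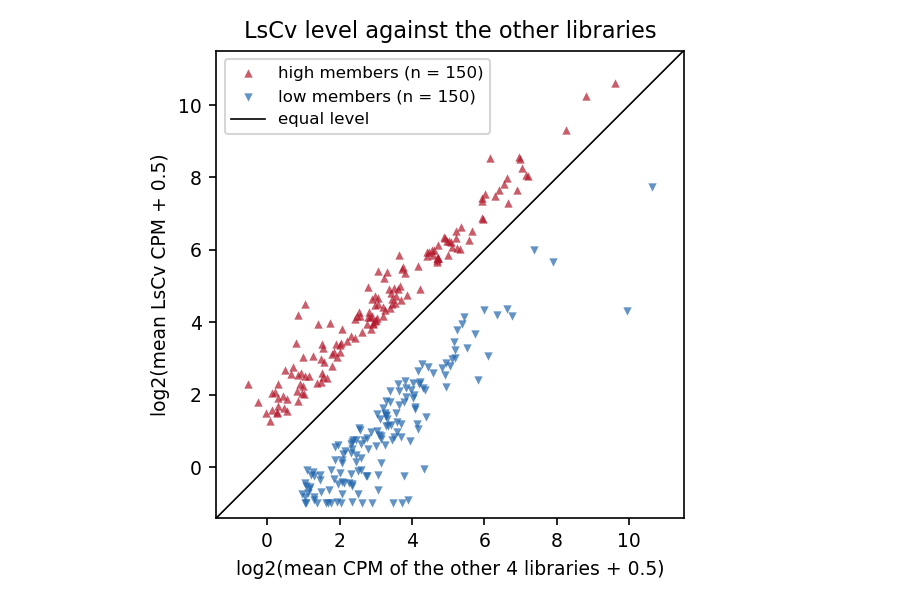
Mean level in LsCv (vertical axis) against the mean level in the other 4 libraries (horizontal axis), both as log2(CPM + 0.5), with a red triangle for each of the 150 high members, a blue triangle for each of the 150 low members and a line of equal level. The high members lie along a band above the line, at a median log2 ratio of 1.32, and the low members reach further from it, at a median of -2.12, with 11 of them at 0 CPM in LsCv, which is -1 on this axis.

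In linear terms the mean LsCv level of a high member was 2.70-fold the mean of the other 4 libraries in the median, from 1.54-fold to 22.4-fold. For the 133 low members with more than 3 counts in at least 1 LsCv library, the mean of the other 4 was 5.27-fold the LsCv level in the median, from 2.47-fold to 56.1-fold. With the members at 0 counts in both LsCv libraries entered at their bound, the median over all 150 was 6.04-fold. Summed over the 150 high members, the share of a library was 1.10% and 1.04% in LsCv, 0.604% and 0.354% in LsCK and 0.383% and 0.457% in LsSq. The 150 low members took 0.0557% and 0.0924% of LsCv, 0.586% and 0.620% of LsCK and 0.365% and 0.411% of LsSq. The summed low members were thus lower in LsSq than in LsCK as well, a sum that ranks 57 and 4 dominate by their level.

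**Figure D3:**
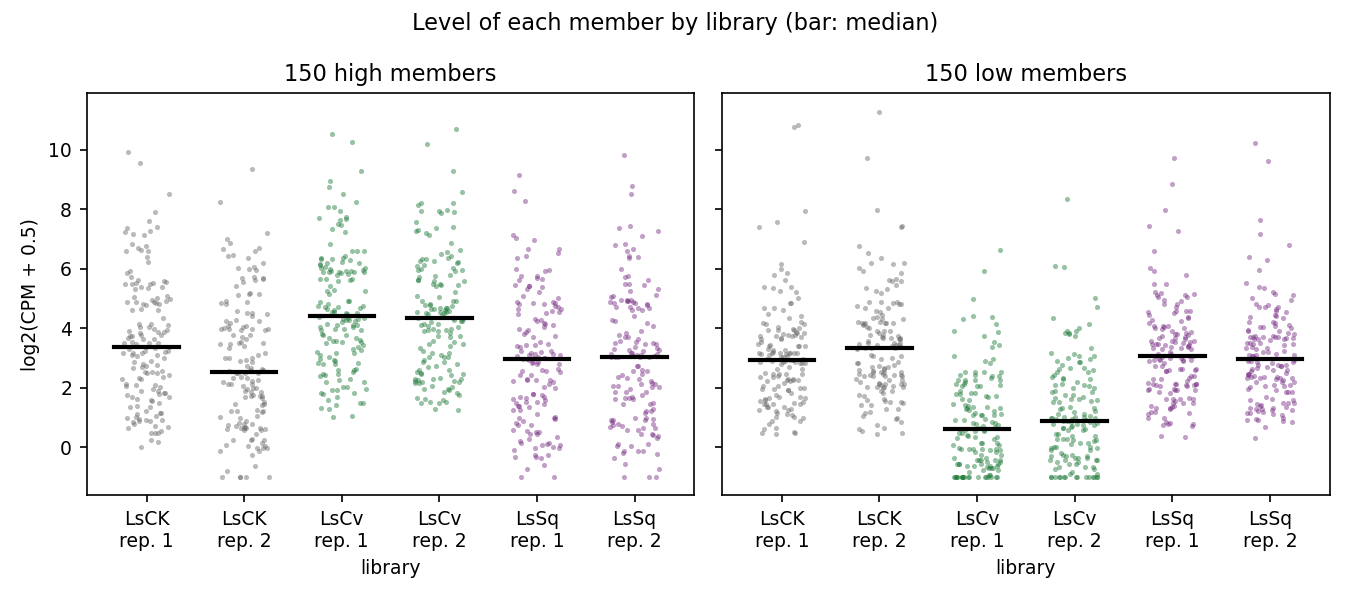
Level of every member in every library as log2(CPM + 0.5), with the 150 high members on the left and the 150 low members on the right, 1 point for each member and a black bar at the median. In CPM the medians of the high members were 9.83 and 5.30 in LsCK, 20.9 and 20.0 in LsCv and 7.27 and 7.80 in LsSq, and those of the low members 7.18 and 9.60 in LsCK, 1.02 and 1.34 in LsCv and 7.87 and 7.29 in LsSq.

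With library totals, the LsCv replicates lay closer together in the members than in the table as a whole. The rule favours this, since it takes the less extreme LsCv library. The median absolute log2 ratio between the 2 LsCv libraries was 0.21 in the high members and 0.33 in the low members against 0.49 over all clusters of the rule. The LsCK libraries differed by a median of 0.63 in the high members and 0.64 in the low members against 0.52 in all, and the LsSq libraries by 0.33 and 0.36 against 0.24. These ratios were not computed with TMM factors, which were 0.835 for LsCv replicate 1 and 1.03 for LsCv replicate 2. LsCv replicate 1 was higher than LsCv replicate 2 in 86 of 150 high members (57.3%) and in 46 of 150 low members (30.7%), where 34.2% of all clusters were. With TMM factors the same shares were 134 of 150 (89.3%), 76 of 150 (50.7%) and 50.9%.

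LsCK replicate 1 most often set the size of the gap. It was the highest of the 4 other libraries in 99 of 150 high members (66%), although it was so in 28.1% of all clusters. LsCK replicate 2 was the highest in 21, LsSq replicate 1 in 15 and LsSq replicate 2 in 15. On the low side LsCK replicate 1 was the lowest of the 4 in 63 of 150 members (42%), against 38.2% of all clusters, and LsCK replicate 2 in 18 (12%), against 24.8%. The remaining low members were divided between LsSq replicate 1 with 35 and LsSq replicate 2 with 34. The level of LsCK replicate 1 exceeded that of LsCK replicate 2 in 124 of 150 high members (82.7%) and in 41 of 150 low members (27.3%), where 43.6% of all clusters did. In most members of both lists LsCK replicate 1 was thus the LsCK library nearer to LsCv. With TMM factors these counts were 133 and 55 of 150 beside 50.2% of all clusters.

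**Figure D4:**
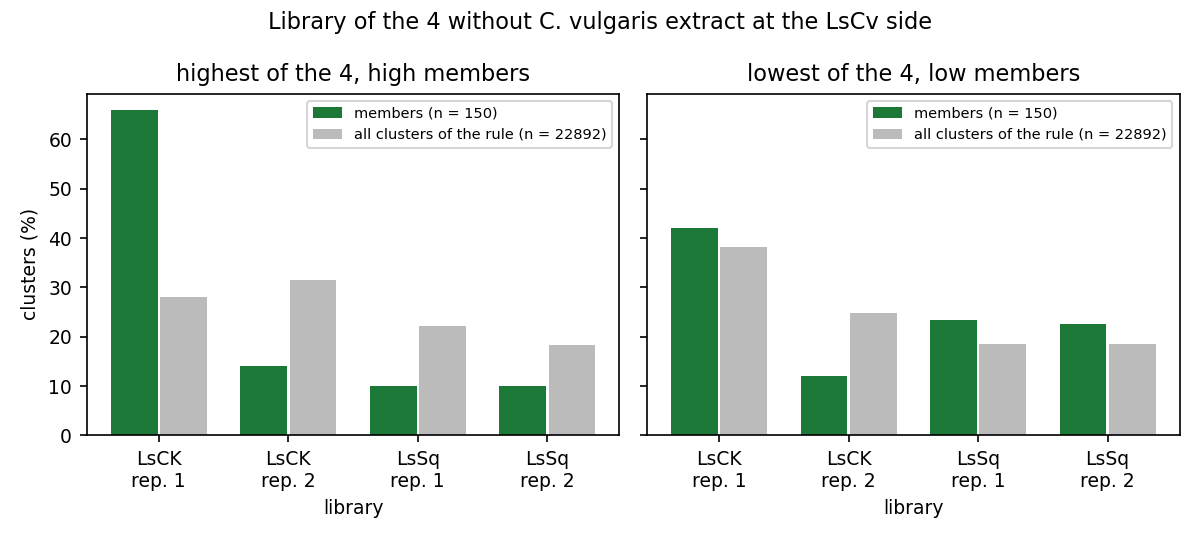
Share of clusters, in percent, in which each library without C. vulgaris extract was the highest of the 4 (left, for the high members) or the lowest of the 4 (right, for the low members), with green bars for the 150 members and grey bars for the 22892 clusters of the rule. LsCK replicate 1 reaches 66% on the left against 28.1% in all clusters, while on the right its 42% is near the 38.2% of all clusters.

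Since the choice of members used LsCv against the other 4 libraries, only LsSq versus LsCK could be tested, and even there the rule had set a ceiling or a floor on both groups. This comparison asked whether the members that C. vulgaris extract set apart also differed between the S. quadricauda extract and the controls. By edgeR's quasi-likelihood test, fitted to all 28157 clusters that passed its filter on low counts with Benjamini-Hochberg adjustment over all of them, 0 of 300 members passed an adjusted p of 0.05, as did 0% of all clusters tested, and the smallest adjusted p was 0.962. All 300 members passed the filter. At an unadjusted p under 0.05, 1 high member was higher in LsSq, beside 2.23% of all clusters tested and 2.44% of the tested clusters of the rule, and 17 high members (11.3%) were lower, beside 2.43% and 2.65%. Among the low members 1 was higher and 6 (4%) were lower. Because the choice of members used both groups, the difference from the share of all clusters cannot be read as a trait of the members. In 99 of 150 high members LsCK replicate 1 was itself the ceiling.

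DESeq2, which estimates the variance in another way, called 2 high members lower in LsSq at an adjusted p of 0.05 and 0 higher, where it called 0.435% of all clusters lower and 0.129% higher. Fitted to the LsSq and LsCK libraries alone, where 133 of 150 high members received an adjusted p, it called 1 high member lower, beside 0.557% lower and 0.222% higher over all clusters. It called 0 low members in both fits. These calls changed when a LsCK library was left out. Without LsCK replicate 2, DESeq2 gave an adjusted p to 114 high and 82 low members and called 6 high members and 2 low members lower (1.38% of all clusters) and 0 high members and 1 low member higher (1.3%). Without LsCK replicate 1 it tested all 300 and called 1 high member and 4 low members lower (1.69%) and 5 high members and 0 low members higher (1.12%). The high member of rank 127 was measured at 1.43 and 1.95 CPM in LsSq, 6.22 and 9.73 CPM in LsCK and 18.7 and 14.7 CPM in LsCv, so the 3 groups did not overlap. Its log2 fold change in LsSq versus LsCK was -2.24 (SE 0.49, DESeq2 adjusted p = 0.00160), and in edgeR it was -2.21 (SE 0.41, adjusted p = 0.962). Rank 73 was at 6.80 and 4.98 CPM in LsSq, 13.3 and 16.0 CPM in LsCK and 25.5 and 29.5 CPM in LsCv, again with 3 separate groups. Its log2 fold change was -1.33 (SE 0.35, DESeq2 adjusted p = 0.0280) and -1.30 in edgeR (SE 0.29, adjusted p = 0.962), and it was not called in the fit of the LsSq and LsCK libraries. Rank 127 remained called without LsCK replicate 1 (adjusted p = 0.00242) and without LsCK replicate 2 (0.0488) by DESeq2, and rank 73 did not (0.0934 and 0.145).

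For the named members the same contrast was small beside its error. The log2 fold change of LsSq versus LsCK was 0.19 (SE 0.54) for Cluster-15809.13579 and -0.65 (SE 0.90) for Cluster-15809.14241. It was 0.13 (SE 0.34) for Cluster-15809.5222 and -0.68 (SE 0.59) for Cluster-9362.0. The edgeR adjusted p-values lay between 0.962 and 0.987. Without LsCK replicate 2 the values, in the same order, were -0.40, -0.83, 0.33 and -1.22, and without LsCK replicate 1 they were 1.20, -0.47, -0.09 and 0.16, with 0 of the 4 called.

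Without a test, the position of LsSq could be read from the libraries. In 102 of 150 high members the LsSq and LsCK libraries overlapped, as they did in most clusters of the rule. Both LsSq libraries lay below both LsCK libraries in 39 high members (26%), where 17.6% of all clusters of the rule did, and above them in 9 (6%), where 20.7% did. In 102 of 150 low members the groups also overlapped, in 28 (18.7%) LsSq lay below LsCK, near the 17.6% of all clusters, and in 20 (13.3%) it lay above, beside 20.7%. In the 39 high members LsSq thus stood on the far side of LsCK from LsCv, and in the 28 low members it stood on the same side as LsCv.

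These positions were largely set by which LsCK library was read. Against LsCK replicate 2 alone, both LsSq libraries were higher in 67 and lower in 45 high members, where 38.1% of all clusters were higher and 40.2% lower. Against LsCK replicate 1 alone they were higher in 11 and lower in 114, where 44.5% were higher and 36.9% lower. The low members moved from 34 higher and 80 lower against LsCK replicate 2 to 67 higher and 43 lower against LsCK replicate 1. The median log2 fold change of LsSq versus LsCK was -0.27 in the high members, with 40 of 150 above 0, and -0.09 in the low members, with 68 of 150 above 0, while the median of all clusters tested was -0.00. Without LsCK replicate 1 the median of the high members was 0.13, and without LsCK replicate 2 it was -0.63. For the low members the values were -0.17 and 0.19.

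**Figure D5:**
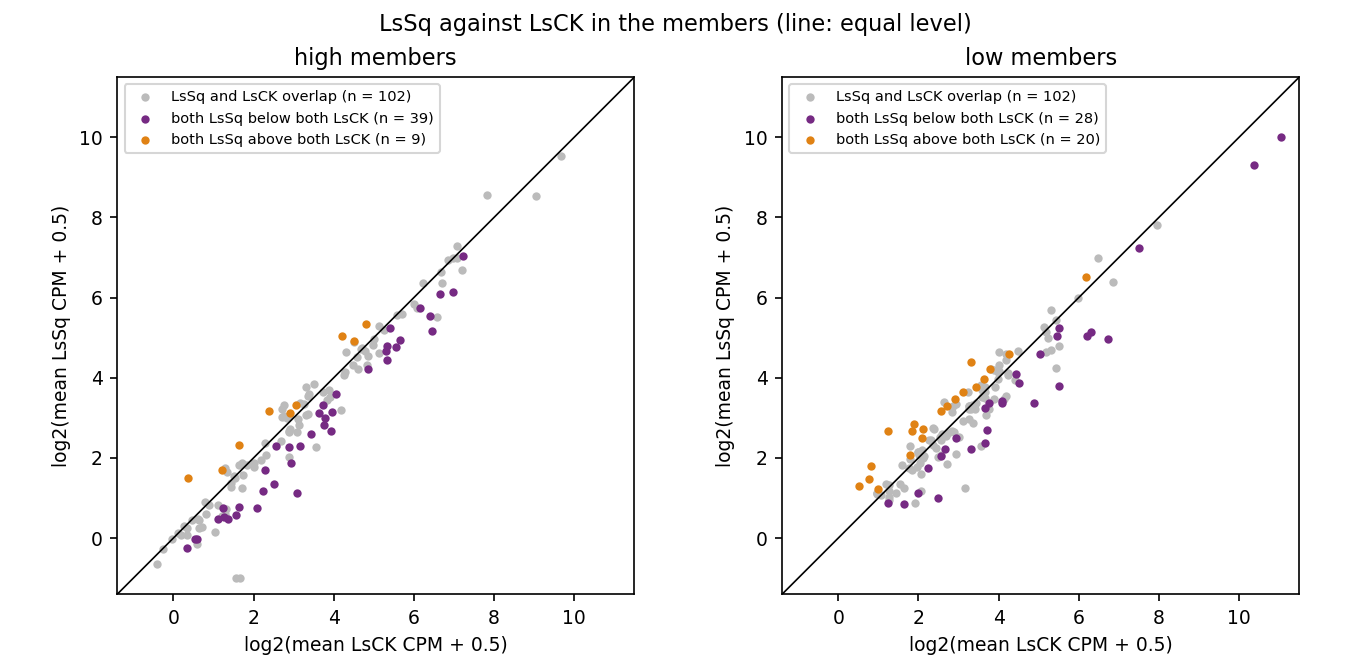
Mean LsSq level (vertical axis) against mean LsCK level (horizontal axis), both as log2(CPM + 0.5), of the 150 high members (left) and the 150 low members (right), with a line of equal level. Purple points are members with both LsSq libraries below both LsCK libraries (39 high, 28 low), orange points are those with both above (9 high, 20 low), and grey points overlap (102 in each panel).

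The members with separate LsSq and LsCK libraries had the following levels, in which the order of the groups was fixed by how the members were chosen and sorted. In the 39 high members with LsSq below LsCK, the median CPM by library was 13.0 and 10.7 in LsCK. It was 5.71 and 4.98 in LsSq and 22.5 and 20.0 in LsCv. Rank 9 was an example, at 29.0 and 30.1 CPM in LsCv, 14.0 and 12.1 CPM in LsCK and 8.40 and 4.63 CPM in LsSq. In the 9 high members with LsSq above LsCK, the medians were 7.01 and 6.97 CPM in LsCK, 9.01 and 8.27 CPM in LsSq and 19.3 and 16.0 CPM in LsCv. Rank 133 belonged here, at 49.5 and 54.7 CPM in LsCv, 31.7 and 33.6 CPM in LsSq and 17.0 and 19.0 CPM in LsCK, with LsSq between the other groups.

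On the low side the 28 members with LsSq below LsCK had medians of 15.0 and 19.7 CPM in LsCK, 8.01 and 12 CPM in LsSq and 1.96 and 1.77 CPM in LsCv. Rank 13 showed this order, at 63.0 and 93.1 CPM in LsCK, 23.6 and 46.0 CPM in LsSq and 4.75 and 4.95 CPM in LsCv. The 20 low members with LsSq above LsCK had medians of 3.99 and 4.98 CPM in LsCK, 7.52 and 7.59 CPM in LsSq and 1.09 and 1.20 CPM in LsCv, and rank 83 was of this kind, at 1.22 and 2.50 CPM in LsCK, 7.89 and 3.79 CPM in LsSq and 0.247 and 0.241 CPM in LsCv. In the LsCK and LsCv libraries the members below LsCK in LsSq had higher medians than those above it, in both lists, while in the LsSq libraries of the high list the order was the opposite. No test was made of that difference.

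The low members differed from the high members in how they sat in the assembly, a property that the rule did not use. The largest super-cluster held 16039 of the 39253 clusters and 60.2% of the 22892 clusters of the rule. It held 90 of 150 high members (60%, 95% Wilson interval 52.0% to 67.5%) and 49 of 150 low members (32.7%, 25.7% to 40.5%). The intervals treat clusters as independent draws, which clusters that share reads and libraries are not. The lists were not tested against each other, and they were not matched for level (median mean CPM 12.4 and 5.98). A cluster that was alone in its super-cluster made up 46 high members (30.7%) and 85 low members (56.7%), against 32.7% of all clusters. A count that was not whole in at least 1 library was found in 74 high members (49.3%) and 35 low members (23.3%), against 45.8% of all clusters. The high members were thus near the whole table in all 3 properties, and the low members were more often isolated clusters whose reads were not divided. By the same rule, the high sets of the other groups also leaned this way. The 150 largest high gaps of LsCK were alone in 54% and not whole in 24.7%, with 36.7% in the largest super-cluster. Those of LsSq stood at 46%, 30% and 46.7%. The low sets lay nearer to the whole table, in the same order at 26%, 46.7% and 68% for LsCK. For LsSq they were 38%, 40.7% and 54.7%.

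These properties were also counted by blocks of rank. Of the 50 largest high gaps, 25 were in the largest super-cluster and 16 had a count that was not whole, against 35 and 30 of ranks 51 to 100 and 30 and 28 of ranks 101 to 150. Of the 50 largest low gaps, 12 were in the largest super-cluster and 10 had a count that was not whole, against 18 and 11 and then 19 and 14. Clusters alone in their super-cluster numbered 17, 12 and 17 over the blocks of the high list and 31, 25 and 29 over those of the low list. The median mean CPM of the high members was 7.02, 14.8 and 17.1 over the 3 blocks of rank, so the largest high gaps were found at lower levels. In the low members it was 6.13, 5.79 and 6.79.

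Where a super-cluster other than the largest held several clusters, the clusters beside the member were summed to see whether they moved with it. The 14 high members of this kind lay in 13 super-clusters. In 8 of these the other clusters reached a summed mean CPM of at least 1, and their high gap was positive in 2 of the 8, with a median of -1.03 and a range from -2.58 to 0.52. The 16 low members lay in 16 super-clusters. In 13 of these the other clusters reached that level, and their low gap was positive in 3, with a median of -0.23 and a range from -0.94 to 0.53. Over all clusters of the rule 7.47% had a positive high gap and 19.3% a positive low gap. With the member included, the summed gap was positive in 11 of the 13 high super-clusters, with a median of 0.62. On the low side it was positive in 13 of the 16, with a median of 0.35. Members were chosen for their gap, which favours a larger gap in the member than in its relatives. For the low member of rank 5, at 0 CPM in both LsCv libraries and between 5.20 and 9.78 CPM in the others, the gap of 3.51 shrank to 0.15 in the sum of its super-cluster, member included. Outside the largest super-cluster 0 super-clusters held both a high and a low member.

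The sets that the same rule gave for the other groups put the LsCv members in proportion. For LsSq the high gap was positive in 3433 clusters (15.0%) and the low gap in 1759 (7.68%), and for LsCK in 1354 (5.91%) and 666 (2.91%). The median gap of the 150 largest was 0.89 for LsSq high and 0.85 for LsSq low, and 0.58 and 0.42 for LsCK. The high members of LsCv, with a median of 0.64, were thus separated by less than the high set of LsSq, while its low members, with a median of 1.25, were separated by more than any other of these sets, with levels scaled by library totals in all. The 3 groups share their libraries in these gaps, so the sets are not independent and were not tested against each other. With DESeq2 size factors the share of high gaps was 50.5% for LsCv, 55.1% for LsSq and 50.7% for LsCK, against 27.9%, 66.1% and 67.0% with library totals.

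For completeness, the contrasts that chose the members gave the following counts, from which nothing can be read. In LsCv versus LsCK 0 members passed an adjusted p of 0.05 by edgeR (0% of all clusters). At an unadjusted p under 0.05 it gave 123 high members, beside 2.39% of all clusters higher, and 149 low members, beside 6.34% lower. DESeq2 called 24 high members (0.238% of all clusters higher) and 109 low members (1.29% lower). In LsCv versus LsSq edgeR likewise called 0 members (0% of all clusters) and gave 134 high members at an unadjusted p under 0.05 (6.26% higher) and 149 low members (9.71% lower), and DESeq2 called 88 (2.38% higher) and 121 (2.9% lower). LsCv versus LsCK and LsSq versus LsCK share the LsCK libraries.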

How the data were processed

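Leaf mRNA of 3 groups of 2 libraries was sequenced by the authors, who assembled the reads de novo with Trinity, grouped transcripts with Corset and deposited 1 table of expected counts per cluster from RSEM. The submitters' processing notes name CASAVA 1.8, RSEM and DESeq2 1.26.0. No genome was used. The deposited expected counts were not normalized. They were used as such for CPM and rounded to whole numbers for the tests. All 6 columns matched a sample by name, and 0 per-sample columns were left out.

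The members and gene lists were chosen with earlier results of these data known. Named were the 2 largest gaps per direction among members without a description; the last and first clusters at each limit and the highest mean CPM were given by rank. LsSq versus LsCK was tested with edgeR 4.0.16 in R 4.3.3 (filterByExpr by group, TMM, glmQLFit and glmQLFTest in 1 fit of 6 libraries, prior count 0.125, Benjamini-Hochberg over 28157 clusters, threshold 0.05), with the code checked on simulated data. With 2 libraries against 2, an exact permutation test of a single value cannot go below p = 0.333. DESeq2 1.42.0, other scalings, offsets and filters, a replicate block and each library left out in turn were alternatives. Tables and figures were made in Python 3.11.15 with matplotlib 3.10.9.

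Depth was between 26408716 and 35184764 counts per library, where 3 counts equal 0.0853 to 0.114 CPM. The 95% Wilson intervals and the limit of 3 counts cover counting error only, as the reads carry no molecular identifiers. Reads that match several clusters are divided by RSEM, so a difference in 1 cluster can be offset in a related one. The sequences of the clusters were not analysed here.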

Additional observations from a re-analysis of the deposited data

How the results depend on the processing

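Of 179 recomputed values, 133 stayed within the limits set for a like result, 42 moved and 4 gained calls, and the cause was not tested. With the minimum of 1 CPM applied anew to the rescaled levels, so that slightly other clusters entered than in the report, the number of positive high gaps was 2602 with TMM, and 3164 with DESeq2 size factors. It was 769 without clusters that hold a fractional count, which also left 2675 positive low gaps. With each library left out in turn the number was 1872 to 5213 for high gaps and 4785 to 10345 for low gaps, highest without LsCv replicate 1 and LsCv replicate 2 respectively. Of the members, 76 high members stayed among the 150 largest gaps without fractional counts and 84 low members with a mean CPM of at least 5. Between 17 and 124 high members and between 35 and 125 low members stayed when a library was left out, fewest without LsCv replicate 2. With 0.1 or 2 added to the CPM the gap was 6.66 or 2.59 for Cluster-15809.5222 and 5.92 or 2.55 for Cluster-9362.0.

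In LsSq versus LsCK, edgeR called 0 members and DESeq2 called 2, or 1 when fitted to the LsSq and LsCK libraries. In fits added after seeing the data, DESeq2 called 10 without LsCK replicate 1 and 9 without LsCK replicate 2. These 2 fits gave an adjusted p to 300 and 196 members, and the shares of all clusters they called are given in the Results. Each kept a single LsCK library, so the counts cannot be read as a trait of the members. The replicate numbers are not known to pair the libraries. Same-numbered deviations correlated at 0.22 to 0.26 over all clusters, with only 2 pairs per comparison and no batch in the labels. With a replicate block 0 members were called and the median log2 fold change was -0.16 in the high and -0.07 in the low members. Leaving out a library moved the median of the high members from -0.63 to 0.13. The counts of members with separate LsSq and LsCK libraries were also taken with a LsCK or LsSq library left out, alternatives added after seeing the data. They ranged over 45 to 114 high members lower and 11 to 67 higher, and over 43 to 80 low members lower and 30 to 67 higher. Over all clusters of the rule the shares then ranged from 26.5% to 40.2% lower and from 29.1% to 44.5% higher. With all libraries those shares were 17.6% and 20.7%. With TMM or size factors the counts, in the same order, were 34 and 39, 9 and 9, 26 and 29, and 20 and 20. Beside them stood 16.6% and 18.1% of all clusters lower and 22.3% and 20.5% higher. Among the 50 largest gaps the largest super-cluster held 50% of high and 24% of low members, and 32% of high members had a fractional count. When the members were chosen with TMM factors, 67.3% of high members were higher in LsCv replicate 1. Depth limits members near the floor of 3 counts, and 2 libraries per group limit every test.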
